A study of Mus musculus with 6 samples.

Results

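The genes described here make, regulate and move cholesterol. They are 34 genes picked by symbol from the 24346 symbols listed for each hippocampal library. The groups are 19 synthesis enzymes, 7 regulators, and 8 genes called transport and storage here. The last group also holds Cyp46a1, a hydroxylase of cholesterol, and Mylip, a ubiquitin ligase that acts on lipoprotein receptors. All 34 were listed and all 34 passed the filter on low values. The study profiled total RNA from the hippocampus of C57BL/6 mice aged 12 months, with 3 libraries from wild-type mice (WT 1 to WT 3) and 3 from TonEBP+/- littermates (HET 1 to HET 3). The mice came from crosses between TonEBP+/- parents, and the line had been backcrossed to C57BL/6J for 5 to 6 generations. No other allele and no treatment is stated for either genotype, and the labels do not say how the TonEBP allele was disrupted. Nfat5 encodes TonEBP, a transcription factor that responds to tonicity. The pathway was picked out for description with its difference between the genotypes already known. Values that set TonEBP+/- against wild type are therefore given as a description of these 6 libraries, and nothing is supported with them.

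The brain makes its own cholesterol, because lipoproteins of the blood do not cross the blood-brain barrier. Synthesis begins with acetyl-CoA, runs through mevalonate and isoprenoids to squalene, and then through a series of sterol intermediates to cholesterol. The transcription factor SREBP-2, encoded by Srebf2, switches on nearly the whole set of enzymes when sterols in the endoplasmic reticulum are low, and INSIG proteins hold it back when sterols are plentiful. Liver X receptors respond to oxysterols and switch on genes that export cholesterol. In adult brain, myelin holds most of the cholesterol, oligodendrocytes and astrocytes carry out much of the synthesis, and neurons dispose of excess as 24-hydroxycholesterol.

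The deposited values are log2(abundance + 1), and from its steps and length dependence the abundance was read as FPKM (fragments for each kilobase of a transcript, relative to depth). Levels below are on that FPKM scale, and the log2 differences are on the deposited scale, which understates the differences of low genes. Depth was estimated from the spacing of low values, and 1 fragment per kilobase was worth between 0.0786 FPKM in the deepest library and 0.127 FPKM in the shallowest. Nfat5 had a mean level of 9.53 ± 1.07 FPKM in WT and of 8.66 ± 0.567 FPKM in the libraries labelled TonEBP+/- (SD, 3 libraries each). Its log2 difference of -0.12 (SE 0.0963, limma adjusted p = 1.00) had a 95% interval of -0.34 to 0.09, and a loss of 50% of the transcript would have been -0.87. A whole-gene value can still count transcripts of a disrupted allele, so it does not check the labels. The labels only number the samples of a genotype, so errors and p-values measure the spread between these samples, which may be technical. Markers of hippocampal principal cells, neurons and glia were present in every library. HET 2 and HET 3 were low in thalamus and habenula markers (9 of 9 below the wild-type mean in each, summed level 102 FPKM in both against 172 to 194 in wild type).

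Among the synthesis enzymes, levels in wild type spanned 24.9-fold, and the 7 lowest were all enzymes of steps after squalene synthesis. Hmgcs1, the cytosolic synthase that makes HMG-CoA, was the most abundant enzyme transcript at 81.7 ± 3.86 FPKM (SD, n = 3) and made up 23.0% of the summed level of the 19. Msmo1, a sterol C4 methyl oxidase, followed at 53.6 ± 6.84 FPKM, and Idi1, the isopentenyl diphosphate isomerase, at 32.5 ± 3.44 FPKM. Sc5d, the lathosterol desaturase, lay at 28.5 ± 0.913 FPKM and Fdps, which makes farnesyl diphosphate, at 25.8 ± 1.20 FPKM. The wild-type libraries of each of these 5 genes lay apart from those of the next gene in the order.

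Fdft1 (squalene synthase), Cyp51 (lanosterol demethylase), Pmvk (phosphomevalonate kinase) and Sqle (squalene epoxidase) formed a group between 16.5 and 19.2 FPKM whose neighbours overlapped in wild type. Acat2, the cytosolic thiolase of the first step, was at 12.8 ± 1.81 FPKM and Mvk, mevalonate kinase, at 7.64 ± 0.243 FPKM. From Mvd, the mevalonate decarboxylase (5.90 FPKM), down to Lss, which cyclises squalene epoxide to lanosterol (3.28 ± 0.554 FPKM), every neighbouring pair overlapped. That stretch holds Ebp, Hsd17b7, Tm7sf2, Lbr, Dhcr7 and Nsdhl, all of them post-squalene genes. Tm7sf2 and Lbr both encode sterol C14 reductases, and they lay close together at 5.24 ± 0.668 and 5.00 ± 0.208 FPKM. In TonEBP+/- libraries, 14 of the 19 enzymes held the same rank. Dhcr7, the final reductase of one branch, moved from rank 17 to rank 13, and no other enzyme moved by more than 2 places.

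**Figure D1:**
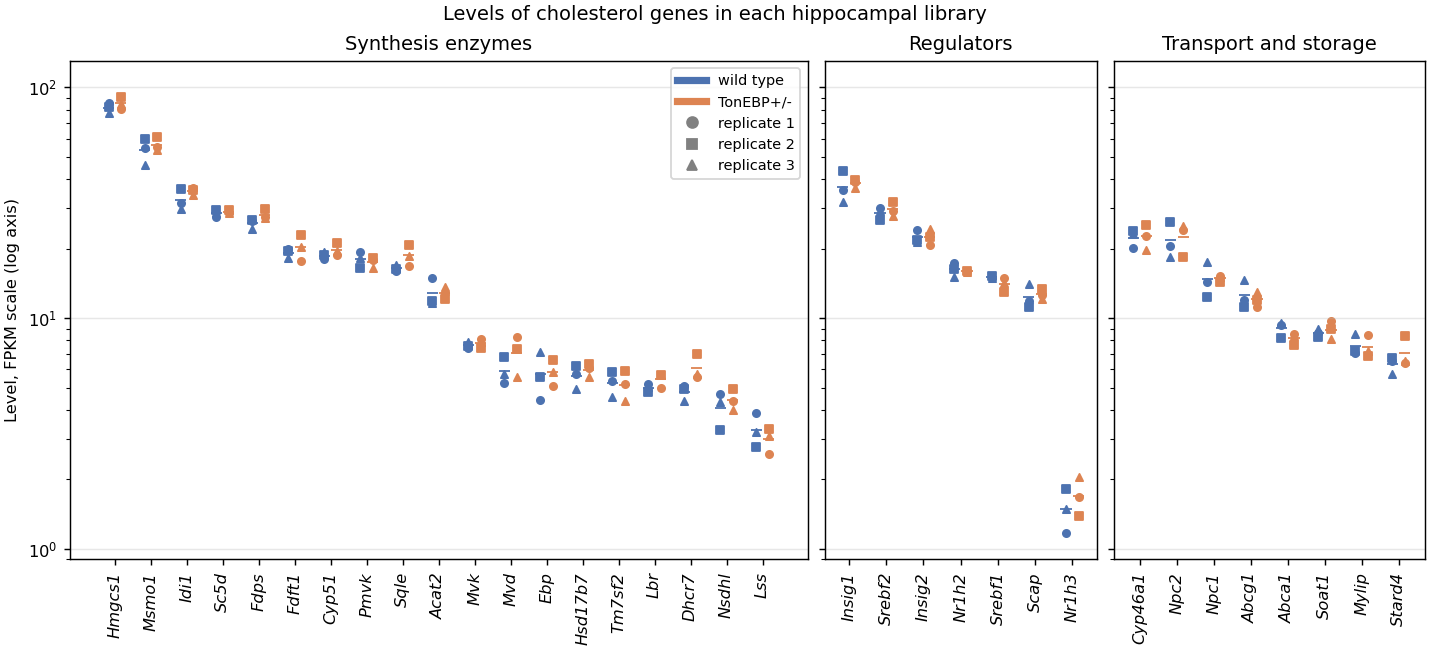
Level of each cholesterol gene on the FPKM scale (vertical log axis) in the 3 wild-type libraries (blue) and the 3 TonEBP+/- libraries (orange), with marker shape giving the replicate number and short lines the group means. Hmgcs1 leads the synthesis enzymes at 81.7 FPKM in wild type and Nr1h3 is the lowest of all at 1.49 FPKM, and the genotypes overlap in 32 of the 34 genes.

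The regulators covered a similar span, 24.8-fold, because of 1 gene. Insig1, the INSIG gene that SREBPs themselves activate, was the highest at 37.0 ± 5.72 FPKM (SD, n = 3), followed by Srebf2 at 28.6 ± 1.77 FPKM and Insig2 at 22.5 ± 1.44 FPKM, and the wild-type libraries of these 3 lay apart. Nr1h2, the liver X receptor beta gene, was at 16.3 ± 1.16 FPKM. Nr1h3, the liver X receptor alpha gene, was at 1.49 ± 0.3199 FPKM, which rests on as few as about 12.2 fragments per kilobase in a library. Srebf1, whose SREBP-1 products favour fatty acid genes, varied little in wild type (15.03 ± 0.155 FPKM), and Scap, the escort protein of SREBPs, was at 12.4 ± 1.501 FPKM. All 7 regulators held the same rank in TonEBP+/-.

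Transport and storage genes lay within 3.53-fold of each other in wild type. Cyp46a1, the neuronal 24-hydroxylase, was at 22.3 ± 1.94 FPKM (SD, n = 3) and overlapped with Npc2 at 21.7 ± 4.04 FPKM, which with Npc1 (14.7 ± 2.59 FPKM) releases cholesterol from lysosomes. The efflux transporter genes Abcg1 (12.6 ± 1.77 FPKM) and Abca1 (9.02 ± 0.697 FPKM) came next. Soat1, which esterifies cholesterol for storage, was at 8.64 ± 0.361 FPKM. Mylip, a ubiquitin ligase that removes lipoprotein receptors, was at 7.59 ± 0.782 FPKM, and Stard4, a cytosolic sterol carrier, at 6.32 ± 0.528 FPKM.

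The promoters of these genes were compared because SREBP-2 works together with the CCAAT-binding factor NF-Y. A RefSeq window of 300 bases (GRCm38.p6), 250 before and 50 after the start site, was found for 28 of the 34 genes. Fdps, Fdft1, Sqle, Stard4, Npc1 and Abcg1 had none, so the motif results do not cover them. The letters CCAAT, on either strand, were in the windows of 15 of 16 synthesis enzymes (93.8%), of 4 of 7 regulators and of 4 of 5 transport and storage genes. The share was 42.7% of the 9896 tested genes with a window and 41.1% of all 27025 genes with one. Some genes have several start sites and so several windows. Over genes with a single window the shares were 13 of 14 synthesis enzymes (92.9%) and 39.0% of tested genes. Of these, 9 of 14 synthesis enzymes (64.3%) had 2 or more CCAAT matches in the window, against 14.9% of tested genes. The match lay within 100 bases before the start in 14 of 16 synthesis enzymes (87.5%) and in 25.9% of tested genes, a distance chosen after the positions were seen. Acat2 was the synthesis enzyme without a match.

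Further motifs were searched on both strands. The sterol regulatory element form TCACNCCAC was found in Hmgcs1 alone among the 28 genes, and in 1.39% of tested genes. Only this exact form was searched. Other forms of the element, or sites outside the window, would be missed, so no match does not mean no element. The GC box GGGCGG was in 15 of 16 synthesis enzymes (93.8%) and 69.4% of tested genes. TGGAAA, the core of the element that TonEBP binds, was in 4 of 16 synthesis enzymes (Idi1, Cyp51, Tm7sf2 and Ebp), in the regulators Srebf1 and Scap, and in 0 of 5 transport and storage genes. With 6 of 28 (21.4%) its share was near the 19.3% of tested genes. The motifs did not overlap in any of the members' windows. A match describes letters in a window and does not show that a factor binds there.

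The 250 bases before the start are printed for the enzyme with the highest level and the only sterol regulatory element match (Hmgcs1, chr13:119690101-119690350, + strand), the enzyme with the most CCAAT matches (Mvk, chr5:114444019-114444268, + strand), an enzyme with CCAAT and the TonEBP core (Idi1, chr13:8885356-8885605, + strand), the second most abundant enzyme (Msmo1, chr8:64733579-64733828, - strand), the downstream start site of the enzyme with the largest difference between genotypes (Dhcr7, chr7:143829964-143830213, + strand), and an efflux gene with no CCAAT for contrast (Abca1, chr4:53159896-53160145, - strand). Each reads 5′ to 3′ toward the start site. Capitals mark CCAAT or its reverse ATTGG, the sterol regulatory element form in Hmgcs1, and the TonEBP core, read in reverse as TTTCCA, in Idi1. GC boxes are not marked.
Hmgcs1: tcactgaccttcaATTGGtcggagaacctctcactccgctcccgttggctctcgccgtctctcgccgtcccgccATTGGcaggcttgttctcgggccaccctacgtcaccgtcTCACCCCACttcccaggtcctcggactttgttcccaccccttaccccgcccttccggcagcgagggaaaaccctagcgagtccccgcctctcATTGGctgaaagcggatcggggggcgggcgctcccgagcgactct
Mvk: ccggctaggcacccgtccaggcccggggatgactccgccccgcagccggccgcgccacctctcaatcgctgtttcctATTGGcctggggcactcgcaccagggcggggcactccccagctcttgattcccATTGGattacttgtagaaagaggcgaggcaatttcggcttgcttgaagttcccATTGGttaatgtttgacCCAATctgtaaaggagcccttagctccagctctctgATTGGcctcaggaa
Idi1: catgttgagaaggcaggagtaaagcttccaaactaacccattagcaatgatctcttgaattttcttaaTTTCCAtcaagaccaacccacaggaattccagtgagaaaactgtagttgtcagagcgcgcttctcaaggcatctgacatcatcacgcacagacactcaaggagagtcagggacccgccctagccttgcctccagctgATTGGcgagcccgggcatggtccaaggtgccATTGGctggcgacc
Msmo1: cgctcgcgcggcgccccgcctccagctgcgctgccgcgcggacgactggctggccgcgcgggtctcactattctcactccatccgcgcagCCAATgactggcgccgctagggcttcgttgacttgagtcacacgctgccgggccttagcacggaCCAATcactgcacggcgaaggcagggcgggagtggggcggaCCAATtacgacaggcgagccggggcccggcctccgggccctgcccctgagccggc
Dhcr7: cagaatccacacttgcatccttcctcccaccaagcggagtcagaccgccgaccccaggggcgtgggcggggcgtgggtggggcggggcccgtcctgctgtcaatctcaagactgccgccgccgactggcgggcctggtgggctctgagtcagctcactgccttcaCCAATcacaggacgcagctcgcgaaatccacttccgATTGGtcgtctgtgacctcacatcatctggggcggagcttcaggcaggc
Abca1: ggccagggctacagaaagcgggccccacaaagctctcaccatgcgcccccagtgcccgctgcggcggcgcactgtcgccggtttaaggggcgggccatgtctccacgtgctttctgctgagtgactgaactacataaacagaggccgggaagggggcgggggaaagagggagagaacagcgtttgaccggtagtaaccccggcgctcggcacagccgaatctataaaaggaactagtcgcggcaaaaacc
In Msmo1 all 3 boxes read CCAAT, whereas in Hmgcs1 the boxes shown read ATTGG and flank the sterol regulatory element on both sides. The 2 boxes of Dhcr7 belong to this start site, and the windows of its other 2 start sites held no CCAAT.

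**Figure D2:**
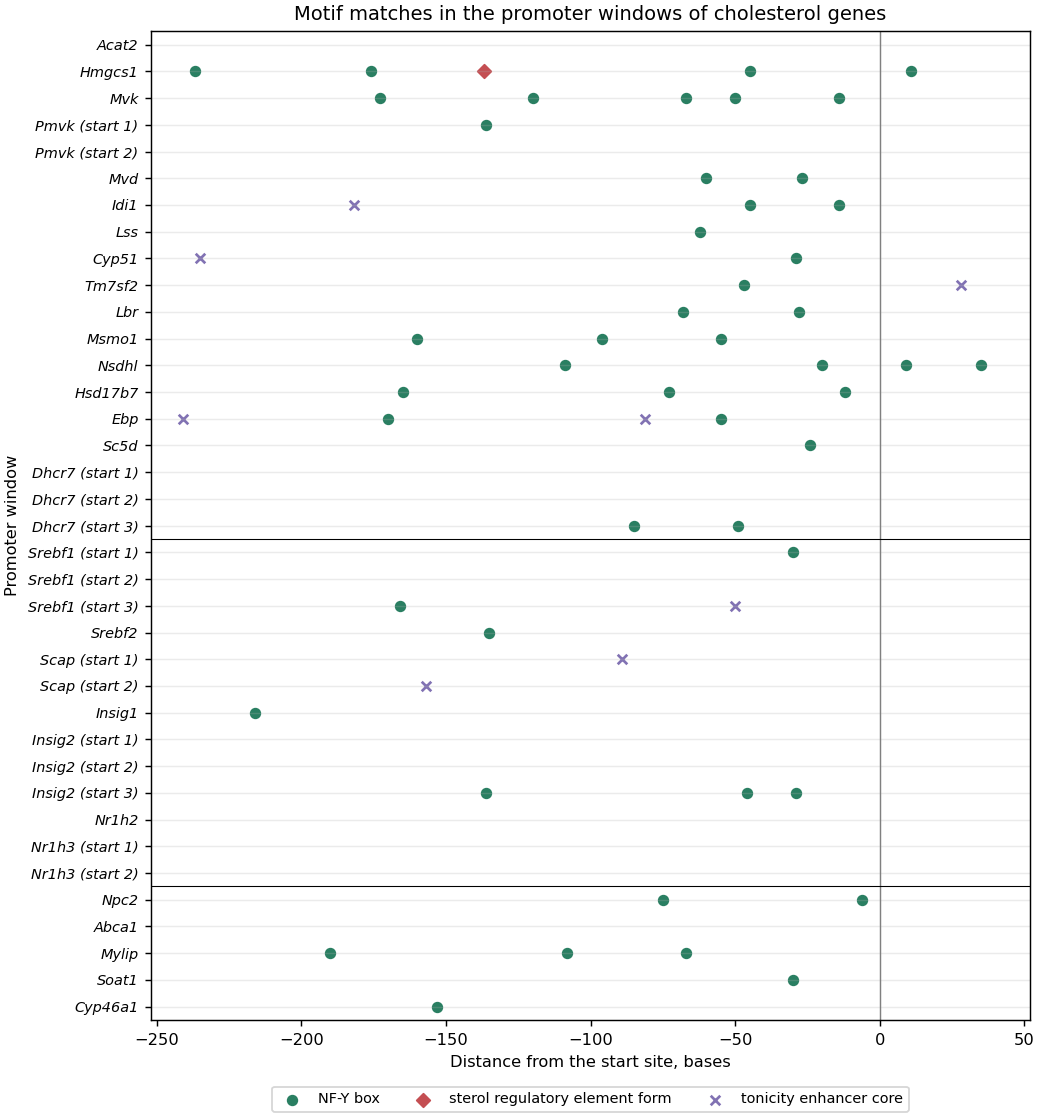
Position of motif matches (horizontal axis, bases from the start site) in each promoter window (rows; genes with several start sites have a row per site), with horizontal lines separating synthesis enzymes, regulators, and transport and storage genes. Green circles are the NF-Y box, the red diamond is the sterol regulatory element form and purple crosses are the TonEBP core. Matches to the NF-Y box lie within 100 bases of the start in 14 of 16 synthesis enzymes.

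The genotype comparison asked whether synthesis enzymes, regulators and transport genes differed between TonEBP+/- and wild type. Of the 34 genes, 0 passed an adjusted p of 0.05 in limma, and so did 0 of the 13122 genes tested (0.0%). At an unadjusted p under 0.05, the count was 1 of 34 (3.69% of all genes tested). The TonEBP+/- libraries lay wholly above the wild-type libraries in 2 of the 34 genes, as in 4.13% of all genes tested, and wholly below them in 0, as in 4.39% of all genes tested. In either direction together the share was 8.52% of all genes tested. The adjusted p was 1.00 for each of the 34, and the largest log2 difference was 0.29.

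Dhcr7 (chromosome 7, 143823167 to 143848410), which encodes 7-dehydrocholesterol reductase, had the largest difference. It was at 5.06, 4.91 and 4.36 FPKM in WT 1 to WT 3 and at 5.56, 6.97 and 5.72 FPKM in HET 1 to HET 3. All 3 TonEBP+/- libraries were above all 3 wild-type libraries, and HET 2 was the highest by a clear margin. The log2 difference was 0.29 (SE 0.106, 95% interval 0.05 to 0.53; limma adjusted p = 1.00). Fdps (chromosome 3, 89093588 to 89101967) was the other gene without overlap, at 26.3, 26.6 and 24.4 FPKM in wild type and 27.4, 29.7 and 27.2 FPKM in TonEBP+/-. The gap between the nearest libraries, WT 2 and HET 3, was small, and the log2 difference was 0.12 (SE 0.0713, 95% interval -0.04 to 0.28).

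Several other enzymes lay higher in TonEBP+/- on average with overlapping libraries. Sqle was at 16, 16.3 and 17.0 FPKM in wild type and 16.9, 20.7 and 18.6 FPKM in TonEBP+/- (log2 difference 0.17, SE 0.0845), where only HET 1 fell within the wild-type range. Mvd was at 5.21, 6.78 and 5.72 FPKM in wild type and 8.31, 7.33 and 5.55 FPKM in TonEBP+/- (log2 difference 0.22, SE 0.139), so that HET 3 sat among the wild-type libraries. For Hmgcs1 the values were 85.5, 81.8 and 77.8 FPKM in wild type and 81.0, 90.8 and 84.3 FPKM in TonEBP+/-, and only HET 2 exceeded WT 1. Its log2 difference was 0.062 (SE 0.0717, 95% interval -0.10 to 0.22), which includes 0.

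In all, 16 of the 19 enzymes had a log2 difference above 0 and 3 below, with a median of 0.077, against a share of 50.0% above 0 and a median of -0.00 over all genes tested. The enzymes below 0 were Lss (-0.10, SE 0.128), Pmvk (-0.04, SE 0.0810) and Tm7sf2 (-0.02, SE 0.123). Lss was at 3.87, 2.76 and 3.20 FPKM in wild type and 2.57, 3.31 and 3.07 FPKM in TonEBP+/-, with HET 1 the lowest and WT 1 the highest library and the others between them. Acat2, Mvk, Sc5d and Ebp were above 0 by less than 0.05. The summed level of the 19 enzymes was 361, 364 and 338 FPKM in wild type and 363, 396 and 364 FPKM in TonEBP+/-. HET 1 and HET 3 gave sums between those of WT 1 and WT 2, and HET 2 gave the highest sum.

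**Figure D3:**
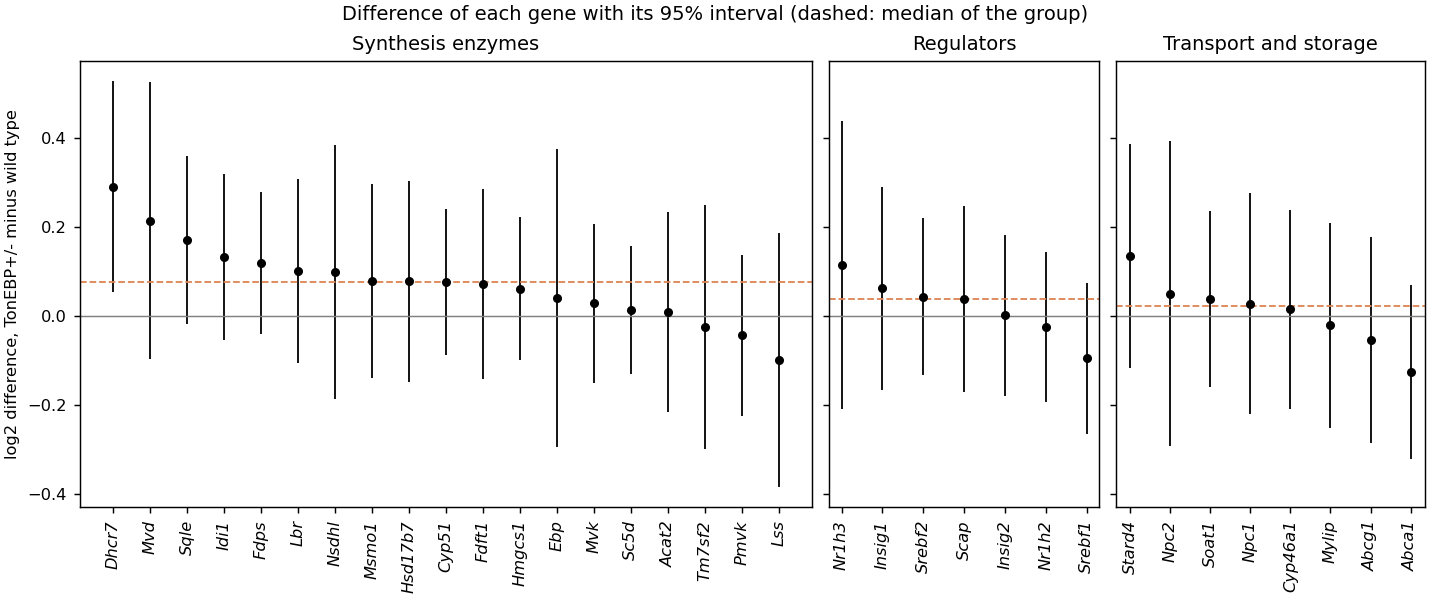
log2 difference, TonEBP+/- minus wild type, of each gene with its 95% interval from limma (3 libraries per genotype), in the 3 groups of genes, with the group median as a dashed line. The medians are 0.077, 0.038 and 0.022, and 33 of the 34 intervals include 0, the exception being Dhcr7.

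HET 2 was the library in which the enzymes stood highest. It was above the wild-type mean in 17 of 19 enzymes (89.5%, against 48.5% of all genes tested in that library) and above all 3 wild-type libraries in 13 of 19 (68.4%, against 24.8%). In HET 1 and HET 3 the enzymes above all wild-type libraries numbered 5 (26.3%, against 21.8%) and 6 (31.6%, against 24.7%). Among all 6 libraries, HET 2 held the highest value for 11 of the 19 enzymes (57.9%, against 18% of all genes tested). It held the lowest for 0 (against 19%). WT 3 held the lowest for 7 (36.8%, against 13.5%) and WT 1 for 6 (31.6%, against 17%). The 2 enzymes below the wild-type mean in HET 2 were Acat2 and Mvk, which both act before the squalene steps. Without HET 2 the median log2 difference of the enzymes was 0.038 and 14 of 19 were above 0. Dhcr7 remained at 0.20 without HET 2.

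**Figure D4:**
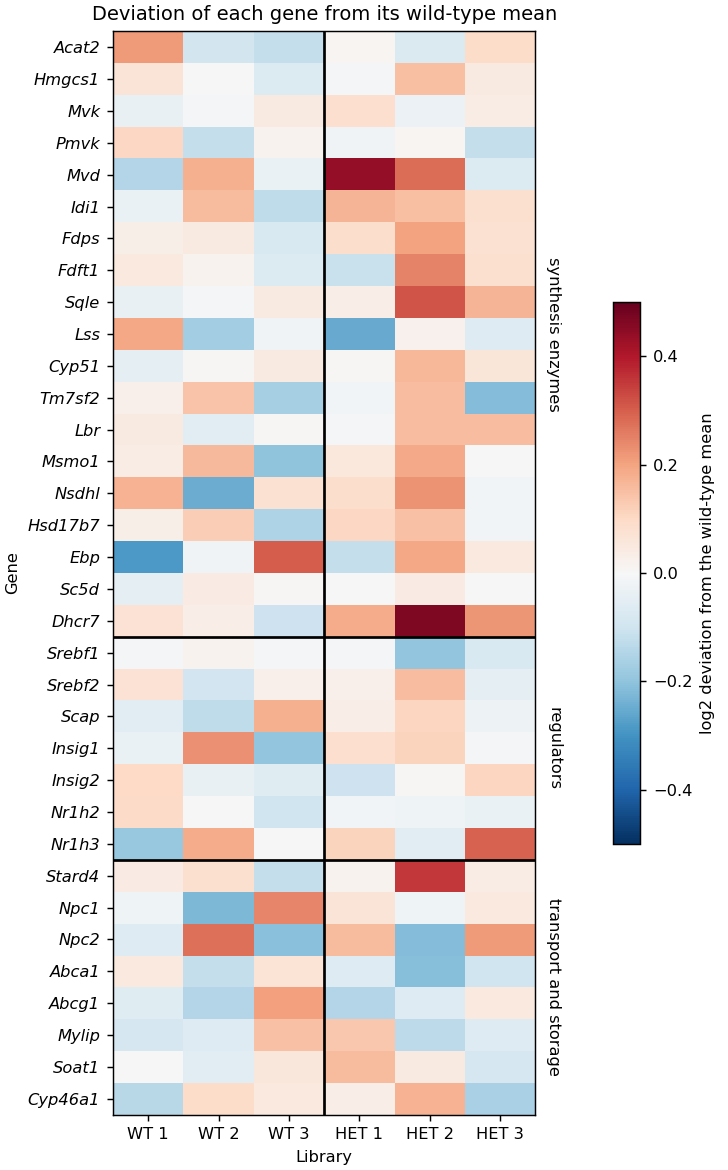
Deviation of each gene (rows) in each library (columns) from its wild-type mean, on the log2 scale, red above and blue below, with black lines separating the groups of genes and the genotypes. The HET 2 column is red in 17 of 19 synthesis enzymes, but in 4 of 7 regulators and 3 of 8 transport and storage genes.

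Oligodendrocyte markers moved the opposite way in HET 2. All 11 markers, among them the myelin genes Mog and Mag, were below the wild-type mean there, with a median deviation of -0.31. All 11 were also below it in WT 1, with a median of -0.12. In HET 2 their summed level was 1254 FPKM against 1458 to 1739 FPKM in wild type and 1638 and 1670 FPKM in HET 1 and HET 3. No marker of the list was at 0 in any library. In bulk tissue, fewer cells of a type and less RNA per cell cannot be told apart. With the mean of these markers as a covariate, the median log2 difference of the enzymes was 0.048, against 0.077 without it. In both fits 16 of 19 were above 0. These markers were lowest in HET 2, and leaving that library out gave a median of 0.038. The covariate fit therefore cannot separate the markers from other traits of HET 2. HET 2 was also low in thalamus markers (median -0.70) and in choroid plexus markers (-1.77), and high in meningeal markers (0.53, 6 of 7 above the wild-type mean), oligodendrocyte precursor markers (0.21, 4 of 5) and endothelial markers (0.19, 6 of 6). In the wild-type libraries the precursor medians ran from -0.18 to 0.09 and the endothelial ones from -0.06 to 0.09. Choroid plexus medians differed widely within wild type too, from -1.01 in WT 3 to 1.05 in WT 2. HET 3 shared the low thalamus markers (-0.79) and the high meningeal markers (0.31), but was high in choroid plexus markers (1.43). The part of these tissues and cell types in the enzyme values was not tested. Astrocyte markers in HET 2 had a median deviation of -0.08, microglial markers one of -0.05 and neuronal markers one of 0.05. HET 1 differed in composition too. All 10 astrocyte markers (median 0.11) and all 8 microglial markers (0.18) were above the wild-type mean there. Its neuronal median was -0.13, within the wild-type libraries, where WT 2 had -0.16. The part of these shifts in the enzyme values was not tested either.

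The regulators showed smaller differences. Insig1 (chromosome 5, 28071412 to 28078662) was at 35.9, 43.2 and 31.9 FPKM in wild type and 39.0, 39.8 and 36.5 FPKM in TonEBP+/-, and the TonEBP+/- libraries lay inside the wild-type range. The log2 difference was 0.06 (SE 0.102, 95% interval -0.17 to 0.29). Srebf1 (chromosome 11, 60199084 to 60224186), the regulator with the smallest p, was at 14.96, 15.2 and 14.9 FPKM in wild type and 14.9, 13.0 and 14.2 FPKM in TonEBP+/-. HET 2 and HET 3 were below the narrow wild-type range and HET 1 was inside it, for a log2 difference of -0.09 (SE 0.0756, 95% interval -0.26 to 0.08). HET 2, the library with the highest enzymes, thus had the lowest Srebf1 and, at 31.9 FPKM, the highest Srebf2. Srebf2, Scap and Insig2 had log2 differences of 0.04 (SE 0.0791), 0.04 (SE 0.0935) and 0.00 (SE 0.0810). For the liver X receptor genes the differences were -0.02 (SE 0.0751) for Nr1h2 and 0.12 (SE 0.145) for the scarce Nr1h3. Of the 7 regulators, 5 were above 0 and 2 below, with a median of 0.038. That median was -0.02 without WT 2, -0.03 without WT 3 and 0.0012 without HET 2.

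Transport and storage genes were divided, 5 above 0 and 3 below, with a median of 0.022. Cyp46a1 (chromosome 12, 108334268 to 108362234) was at 20.1, 23.7 and 23.0 FPKM in wild type and 22.7, 25.2 and 19.8 FPKM in TonEBP+/-, with HET 2 above and HET 3 below the wild-type libraries (log2 difference 0.016, SE 0.0998). Abca1 (chromosome 4, 53030789 to 53159988), the gene of the group with the smallest p, was at 9.33, 8.22 and 9.50 FPKM in wild type and 8.55, 7.63 and 8.34 FPKM in TonEBP+/-. Only HET 2 was below the wild-type range, and the log2 difference was -0.13 (SE 0.0877, 95% interval -0.32 to 0.07). Abcg1 and Mylip, like Abca1 targets of liver X receptors, had differences of -0.05 (SE 0.103) and -0.02 (SE 0.103). Stard4, a gene activated by SREBP-2, was at 6.52, 6.71 and 5.72 FPKM in wild type and 6.39, 8.34 and 6.49 FPKM in TonEBP+/-, and HET 2 again was the highest library. Its log2 difference was 0.14 (SE 0.112). The lysosomal pair Npc1 (0.03, SE 0.111) and Npc2 (0.05, SE 0.1496) and the storage enzyme Soat1 (0.04, SE 0.0882) lay near 0. The median of the group was -0.02 without WT 1 or without WT 2, and -0.0037 without HET 1.

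Set side by side, the library medians of the 3 groups differed in HET 2. The median deviation from the wild-type mean was 0.16 for enzymes, 0.0043 for regulators and -0.04 for transport and storage genes in that library. In HET 1 the 3 medians were 0.011, 0.026 and 0.048, and in HET 3 they were 0.046, -0.03 and -0.01. The wild-type libraries ran from -0.03 to 0.03 for enzymes and from -0.06 to 0.06 for transport genes. The enzyme median of HET 2 lay above its wild-type range by more than any other of these medians. The enzyme median of HET 3 also lay above its wild-type range. The regulator medians of HET 1, HET 2 and HET 3 lay outside theirs, which ran only from -0.0098 to 0.0038, and HET 2 barely so. Deviations are taken from the mean of the same wild-type libraries, so the wild-type ranges are narrow by construction. A median outside such a range is therefore not a sign of a genotype difference.

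**Figure D5:**
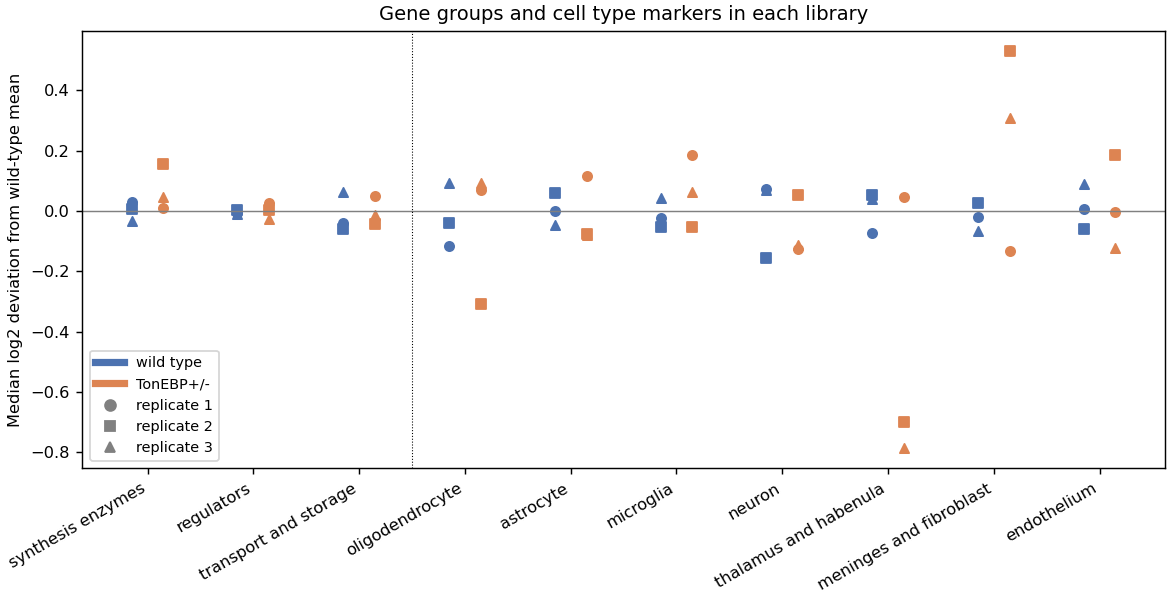
Median log2 deviation from the wild-type mean (vertical axis) of the 3 groups of cholesterol genes and of 7 lists of cell type and region markers in each library, blue for wild type and orange for TonEBP+/-, with marker shape giving the replicate number. HET 2 (orange square) is highest for synthesis enzymes at 0.16 and the lowest of the 6 libraries for oligodendrocyte markers at -0.31.

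The genes were also compared for how they varied together within a genotype. Each value was set against the mean of its own genotype, and the Pearson correlation of these deviations over the 6 libraries was taken for each pair of genes, as a description. The median over the 171 pairs of synthesis enzymes was 0.19, against 0.00 over all pairs of tested genes, and 27.5% of enzyme pairs were above 0.5, against 20.8%. Pairs of an enzyme and a regulator had a median of 0.0083, and those of an enzyme and a transport or storage gene one of -0.08. Pairs share the same 6 libraries and are not independent. HET 2 lay above the mean of its own genotype in 17 of the 19 enzymes, the same 17 that stood above the wild-type mean there, so these correlations and the difference between the genotypes draw on the same values of HET 2. The typical spread of an enzyme within wild type, a median coefficient of variation of 8.12%, was close to the 8.61% of all genes tested.

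Pathways next to cholesterol synthesis were described in the same way. Of 11 genes of the isoprenoid branch, which draws farnesyl diphosphate away for prenylation, dolichol and coenzyme Q, 4 were above 0 and 7 below, with a median of -0.04 and 0 passing limma. Those with the smallest p were Rabggta, a subunit of the Rab prenyltransferase (0.15, SE 0.0816), Fnta, the farnesyltransferase alpha subunit (-0.11, SE 0.0858), and Pdss1, which builds the coenzyme Q tail (-0.12, SE 0.140). Of 8 genes that cleave SREBPs or take part in sterol-regulated degradation, 3 were above 0 and 5 below (median -0.01, 0 passing). Among those with the smallest p were Aup1 (0.13, SE 0.0830) and Mbtps1, the site-1 protease (-0.05, SE 0.0702).

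Fatty acid synthesis and desaturation genes, many of them targets of SREBP-1, were above 0 in 8 of 15 and below in 7, with a median of 0.00097 and 0 passing. Me1, the malic enzyme that supplies NADPH, had a mean of 21.5 ± 0.924 FPKM in WT and of 18.8 ± 1.37 FPKM in TonEBP+/- (SD, n = 3 each), with all TonEBP+/- libraries below all wild-type libraries (log2 difference -0.19, SE 0.0769; limma adjusted p = 1.00). Such a separation below wild type was found in 2 of the 15 genes, against 4.39% of all genes tested. The other was Acly, ATP citrate lyase (-0.05, SE 0.0620), named here after its values were seen. Aacs, acetoacetyl-CoA synthetase (0.15, SE 0.105), and Elovl6, a fatty acid elongase (0.09, SE 0.0804), followed. Scd2, Scd1 and Fasn had differences of -0.08 (SE 0.0926), -0.02 (SE 0.0782) and 0.0068 (SE 0.0954). Of 29 other genes of sterol transport, uptake and oxysterol metabolism, 27 passed the filter, with 10 above 0 and 17 below, a median of -0.0096 and 0 passing. Lcat, which esterifies cholesterol on lipoproteins (0.21, SE 0.0974), Tspo, a mitochondrial outer membrane protein (0.26, SE 0.129), and Osbpl2, an oxysterol-binding protein family member (-0.12, SE 0.0798), had the smallest p. Osbpl2 was the 1 gene of these 27 without overlap, below wild type. In the isoprenoid branch it was Rabggta, above wild type (1 of 11, against 4.13% of all genes tested). Among the genes of SREBP cleavage and degradation, 0 of 8 lay apart.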

How the data were processed

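RNA of 6 hippocampal libraries was made into strand-specific libraries, per the labels' protocols, and TopHat and mm10 are named in the submitters' processing notes. The tool version, the annotation and the abundance program were not given in the sources used here. The deposited values are log2(abundance + 1), a reading taken from the values because no header names the unit. With another log base the differences would change. Depth was estimated from the step between low values of genes with 1 transcript in GENCODE, where 68.3% to 72.6% of values lay within 0.15 of a whole step.

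The 13122 genes that reached 1 FPKM in 3 libraries entered a limma fit (version 3.58.1, R 4.3.3) with a single term for genotype (trend and robust options, Benjamini-Hochberg adjustment over all genes tested, threshold 0.05). On simulated data made from these 13122 genes, 200 genes were changed in each of 20 draws, with the sizes mixed within a draw. Log2 changes of 0.3, 0.5, 0.75 and 1 were recovered at 6.9%, 41.6%, 69.9% and 85.4%, and each share belongs to that mixture. The members and gene lists were chosen with earlier results of these data known. All members could be named. Those given library by library have genotypes that do not overlap, or the highest level or smallest p of their group, with a few more chosen after their values were seen. In each other pathway list the 3 genes with the smallest p are named, except 1 that is not reported here. Alternatives listed with the design were median scaling, quantile normalization, no filter, a mean of at least 5 FPKM, a pseudocount of 0.1, no robust option, a replicate block, an oligodendrocyte covariate, and each library left out in turn. No 2 libraries were copies of each other. Promoters are RefSeq windows of GRCm38.p6, the assembly that mm10 names. Python 3.11.15 and matplotlib 3.10.9 drew the figures.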

Additional observations from a re-analysis of the deposited data

How the results depend on the processing

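Under quantile normalization, median scaling, both other filters, a pseudocount of 0.1, no robust option, the replicate block and the oligodendrocyte covariate, 0 of the cholesterol genes and 0 genes in all passed limma. The enzyme median stayed between 0.048 and 0.081 and the number of enzymes above 0 at 15 or 16. The stricter filter tested 17 of the 19 enzymes. With each library left out in turn, 0 to 8 genes of all those tested passed (8 without HET 1, and 1 each without WT 1, WT 2 or HET 3), and 0 of the cholesterol genes. The regulator median ran from -0.0285 to 0.0518, the enzyme median from 0.038 to 0.10, the transport median from -0.02 to 0.05, and the enzymes above 0 from 14 to 16. The sign of the difference held under every alternative in 11 of 19 enzymes, Dhcr7, Fdps, Sqle and Hmgcs1 among them, in 2 of 7 regulators (Srebf1 and Nr1h3) and in 2 of 8 transport and storage genes (Stard4 and Abca1). The filters, the robust option and the replicate block cannot change a gene's log2 difference. Agreement of signs under them was therefore fixed in advance, as was the enzyme median with no filter, no robust option or the block. Only the other alternatives could change a sign. Same-numbered libraries of the genotypes did not deviate together (r = -0.21, -0.25 and -0.16). With deviations taken within 3 libraries per genotype, these values cannot decide whether the replicate numbers mark pairs. Under the replicate block 0 genes passed, and the enzyme median of 0.077 could not move because the block is balanced. In simulated data with 200 genes changed at once, the sizes were mixed from 0.3 to 1. In that mixture 6.9% of changes of 0.3 were recovered, so the absence of calls does not show that levels are equal.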
